A study of Homo sapiens with 29 samples.

Results

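The response of 2 lung carcinoma cell lines to knockdown of NRF2 was compared across genes. Of the 29 samples of the series, 12 belong to this comparison, chosen as the messenger RNA libraries of H2122 and H460 cells that carry a short hairpin RNA (shRNA) against NRF2 or against GFP. H2122 and H460 are established human non-small cell lung cancer lines, and GFP, a jellyfish protein that human cells do not make, served as the control target. There were 3 libraries in each of 4 groups: H2122 with shGFP and H2122 with shNRF2, both collected 24 h after knockdown, and H460 with shGFP and H460 with shNRF2, both collected 72 h after knockdown. H460 libraries with hairpins against NR0B1 or SNW1, also at 72 h, are used here mainly as values beside those of NRF2. They also enter 1 alternative fit and the check of the depth scaling, each over all 18 knockdown libraries. The labels give no hairpin sequence and do not say whether the 3 libraries of a group came from separate cultures, so the p-values cover only how far libraries of 1 group differed, and that difference may be technical. The 2 lines were collected at different times, and line and time cannot be told apart.

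NRF2, encoded by NFE2L2, is a transcription factor that pairs with small MAF proteins and binds antioxidant response elements. KEAP1 normally holds NRF2 in the cytoplasm and sends it to the proteasome, and many lung cancers carry mutations in KEAP1 that leave NRF2 active. Its known targets make glutathione and thioredoxin, detoxify carbonyls and quinones, supply NADPH and export conjugates, and NRF2 also competes with the repressor BACH1 for the same elements.

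Expression was given by the authors as FPKM, fragments per kilobase of gene length scaled for the depth of the library, and changes are stated as shNRF2 minus shGFP on the log2(FPKM + 1) scale, where 1 is close to a doubling for an abundant gene. The 1 added to each value makes the changes of genes of low expression smaller than their fold changes. The 12 libraries held 16709893 to 24613434 reads, and 12798 of the 23710 genes in the table reached 1 FPKM in at least 3 libraries and were tested. All tests are from 1 limma model of the 4 groups with Benjamini-Hochberg adjustment over those 12798 genes, and a gene is called at an adjusted p under 0.05. NFE2L2 fell in both lines. It fell by 1.11 in H2122 (adjusted p = 1.1e-11, limma) and fell by 0.67 in H460 (adjusted p = 2.3e-09). The levels of the target were 59.5, 58.4 and 57.5 FPKM with shGFP and 27.5, 25.8 and 26.5 with shNRF2 in H2122, against 44.0, 44.3 and 41.5 with shGFP and 25.8, 26.8 and 27.9 with shNRF2 in H460. The remaining NFE2L2 messenger RNA was therefore not the same share in the 2 lines (adjusted p of the difference 8.1e-06, limma), and its part in the differences below was not tested. Both lines expressed the keratins KRT8, KRT18 and KRT19, at group means of 284 FPKM or more, whereas EPCAM and CDH1, which define epithelial cells, averaged 333 and 75.7 FPKM in H2122 shGFP and 0.888 and 0.00960 FPKM in H460 shGFP. The keratin KRT7 also set the lines apart. It averaged 1886 FPKM with shGFP and 2679 with shNRF2 in H2122, against 6.36 and 2.99 in H460. The lung lineage markers NKX2-1, SFTPB and NAPSA were below 1 FPKM in every one of the 12 libraries.

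The response to NRF2 knockdown differed between the lines for 9168 genes, 71.6% of those tested, with 4782 (37.4%) changing to a higher value in H2122 than in H460 and 4386 (34.3%) to a lower one. The 3 libraries of a group lay so close together (median standard error of a change 0.05, of the difference 0.07) that even small differences passed the test, so direction and size were used to sort the genes. In H2122, 10433 genes (81.5%) were called, 5850 (45.7%) higher and 4583 (35.8%) lower. In H460, 9826 (76.8%) were called, 5086 (39.7%) higher and 4740 (37.0%) lower. Most large changes went the same way: of 2093 genes (16.4%) called in both lines with at least 1.5 fold in each, 2009 (15.7%) moved in the same direction, and for 1265 of these (9.88% of the genes tested) the difference was called too. The other 84 (0.656% of the genes tested) moved in opposite directions, 52 (0.406%) higher in H2122 and lower in H460 and 32 (0.25%) the reverse. For all 84, the shNRF2 and shGFP libraries did not overlap in either line. Across all genes tested the libraries did not overlap for 84.7% in H2122 and 76.9% in H460. Without the 1.5-fold bound, 1439 genes (11.2%) were called in both lines with opposite signs, 838 (6.55%) higher in H2122 and 601 (4.7%) lower. The median change over all genes tested was 0.07 in H2122, 0.01 in H460 and 0.02 for the difference. Rescaling each library to the same FPKM total moved those medians to 0.18, 0.07 and 0.07, so the balance of small increases and decreases in H2122 rests on the scaling.

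A change in 1 line only was defined by a bound rather than by a missed test: at least 2 fold and called in 1 line, called in the difference, and a 95% confidence interval within 0.32 of no change on the log2 scale in the other line, where the gene had to average at least 1 FPKM. This held for 252 genes (1.97%). In H2122 only, 87 genes (0.68%) rose and 77 (0.602%) fell, and in H460 only 61 (0.477%) rose and 27 (0.211%) fell. Of the 252, 120 still passed the test in the bounded line, 40 of them with the opposite sign. Genes that changed by 2 fold in 1 line but averaged under 1 FPKM in the other, where a fall could not have been seen, are described apart. The members of these classes were picked by the tests named here, so their values describe the classes and are no further test of them.

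**Figure D1:**
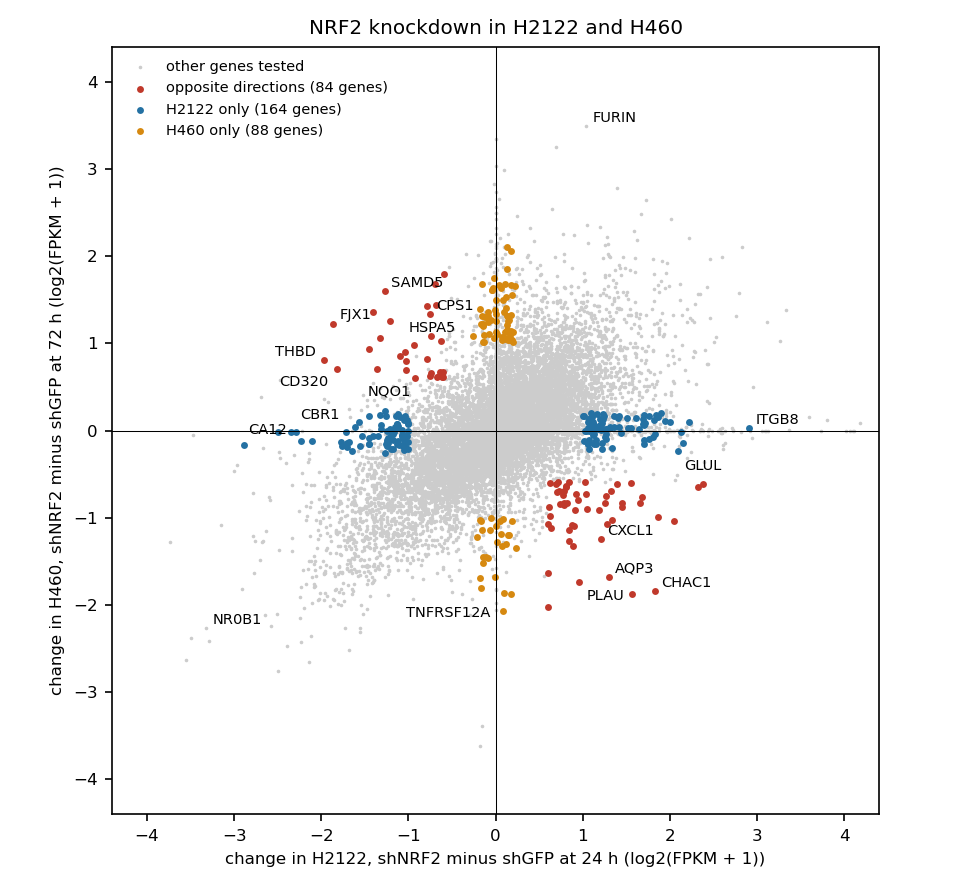
Change on NRF2 knockdown in H2122 (horizontal axis, 24 h) against H460 (vertical axis, 72 h) for each of the 12798 genes tested, as shNRF2 minus shGFP in log2(FPKM + 1), with 1 point per gene. The 84 genes of opposite direction (red) lie in the upper left and lower right, the 164 genes bounded in H460 (blue) along the horizontal axis and the 88 genes bounded in H2122 (orange) along the vertical axis, while most grey points run from lower left to upper right.

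Among the 52 genes that rose in H2122 and fell in H460, CHAC1, PLAU, AQP3 and CXCL1 came first when ranked by the smaller of their 2 changes. CHAC1 encodes an enzyme that breaks down glutathione and is a known target of the stress factor ATF4. It was measured at 2.29, 2.25 and 2.60 FPKM with shGFP and 12.1, 10.6 and 10.3 with shNRF2 in H2122, and at 4.35, 5.45 and 5.75 with shGFP and 0.934, 0.490 and 0.742 with shNRF2 in H460. Its change was 1.83 (SE 0.10) in H2122 and -1.84 (SE 0.10) in H460 (adjusted p of the difference 2.0e-10, limma). The knockdown thus reversed the order of the lines, CHAC1 being lower in H2122 than in H460 with shGFP and higher with shNRF2. The control at 24 h and that at 72 h are different libraries, and in bulk RNA less RNA per cell and fewer expressing cells cannot be told apart, here and for every gene that follows. The 250 bases before the CHAC1 start hold 1 match to TGATGNAA, the core of the element that ATF4 and C/EBP proteins bind. They are shown, on the plus strand of GRCh38.p14 at chr15:40953221-40953470 from RefSeq, because CHAC1 had the largest difference of the class, with the match in capitals as it reads on the opposite strand.
CHAC1: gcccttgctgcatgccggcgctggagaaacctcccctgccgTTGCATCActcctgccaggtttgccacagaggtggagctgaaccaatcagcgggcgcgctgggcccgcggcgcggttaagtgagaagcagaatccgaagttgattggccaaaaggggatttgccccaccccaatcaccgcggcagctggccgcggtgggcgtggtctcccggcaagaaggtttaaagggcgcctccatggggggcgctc
Searched on both strands, TGATGNAA was found in 3.62% of 35116 RefSeq promoter windows of 300 bases (250 before and 50 after the start), in 2.44% of the 123 windows of the opposite genes, where only AJUBA, CHAC1 and PLS1 hold it, and in 24.2% of the 33 windows of a list of ATF4 targets. A match is a stretch of letters and not a measured site.

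Several of the 52 genes make secreted or surface proteins. PLAU, the urokinase that activates plasminogen at the cell surface, was measured at 141, 153 and 143 FPKM with shGFP and 436, 440.2 and 424 with shNRF2 in H2122, and at 58.3, 60.1 and 61.2 with shGFP and 16.0, 15.7 and 15.2 with shNRF2 in H460. It rose by 1.57 (SE 0.034) and fell by 1.87 (SE 0.034), with an adjusted p of 4.3e-14 for the difference (limma). The 6 libraries with shNRF2 were thereby further apart between the lines than the 6 with shGFP. CXCL1, a chemokine that attracts neutrophils, stood at 17.9, 19.8 and 19.1 with shGFP and 47.7, 44.3 and 43.4 with shNRF2 (FPKM) in H2122, and at 185, 183 and 172 with shGFP and 74.1, 79.5 and 73.0 with shNRF2 (FPKM) in H460. Its changes of 1.21 (SE 0.048) and -1.24 (SE 0.048) brought the lines closer, from a lower level in H2122 (adjusted p of the difference 1.0e-11, limma). AQP3, a channel for water and glycerol, rose by 1.30 in H2122 (mean 140.5 to 348 FPKM) and fell by 1.67 in H460 (7.09 to 1.52 FPKM). MDK, the heparin-binding growth factor midkine, rose by 1.34 and fell by 1.02, and SDC4, a heparan sulfate proteoglycan of focal adhesions, rose by 0.84 and fell by 1.14. Group means of these 5 genes ran from 1.52 FPKM (AQP3 in H460 with shNRF2) to 433 FPKM (PLAU in H2122 with shNRF2). Genes were named only if the higher group averaged at least 5 FPKM in each line, so these levels do not describe the whole class.

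Other members of this class act inside the cell. ASS1, which joins citrulline and aspartate in arginine synthesis, was 12.6, 11.7 and 10.8 FPKM with shGFP and 22.7, 22.0 and 22.2 with shNRF2 in H2122, and 246, 249 and 283 with shGFP and 127, 124 and 115 with shNRF2 in H460. The change was 0.88 (SE 0.059) in H2122 and -1.08 (SE 0.059) in H460, with H460 above H2122 in every library. The actin-binding proteins CAPG and PLS1 rose by 0.84 and 0.88 in H2122 and fell in H460 (changes -1.27 and -1.33). ANXA3, an annexin, and SERPINB1, an inhibitor of neutrophil proteases, rose by 0.96 and 0.90 in H2122 and fell in H460 (changes -1.74 and -1.10). GCHFR, the feedback regulator of tetrahydrobiopterin synthesis, rose by 1.66 and fell by 0.84. MAFF, a small MAF and so a possible partner of NRF2, rose by 2.05 (mean 4.25 to 20.8 FPKM) and fell by 1.04 (2.30 to 0.606 FPKM), whereas its relatives MAFG (changes -0.52 and -0.21) and MAFK (-0.31 and 0.28) moved by less than 1.5 fold in both lines. Chosen after their values were seen, PMAIP1, a p53 target that promotes apoptosis, rose by 0.60 and fell by 2.02, and ZFP36, which speeds the decay of cytokine messages, rose by 0.61 and fell by 0.88. Over the 52 genes the change ran from 0.60 to 2.38 in H2122 (median 0.92) and from -2.02 to -0.59 in H460 (median -0.84), and the median shGFP level was 19.5 FPKM in H2122 and 9.15 in H460.

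The 32 genes that fell in H2122 and rose in H460 included enzymes of nitrogen, fat and nucleotide metabolism. CPS1, the mitochondrial enzyme that makes carbamoyl phosphate from ammonia, was 30.1, 29.6 and 31.5 FPKM with shGFP and 17.5, 17.7 and 17.8 with shNRF2 in H2122, against 296, 299 and 279 with shGFP and 739, 762 and 712 with shNRF2 in H460. It fell by 0.75 (SE 0.035) and rose by 1.34 (SE 0.035), with an adjusted p of 2.7e-12 for the difference (limma). CPS1 and ASS1, which both act in nitrogen disposal, therefore moved against each other within each line. ACSL1, which activates long-chain fatty acids, was 16.7, 16.0 and 16.4 with shGFP and 5.08, 5.34 and 5.60 with shNRF2 (FPKM) in H2122, and 13.0, 13.3 and 12.2 with shGFP and 26.0, 26.3 and 24.4 with shNRF2 (FPKM) in H460. Its changes were -1.45 (SE 0.045) and 0.94 (SE 0.045), adjusted p of the difference 6.4e-12 (limma). It was the 1 gene of 12 tested on the fatty acid synthesis list to meet the bound for opposite directions. IMPDH1, an enzyme of guanine nucleotide synthesis, fell by 1.37 and rose by 0.70. MPC1, a subunit of the mitochondrial pyruvate carrier, fell by 0.79 and rose by 0.82, and SLC23A2, a vitamin C transporter, fell by 0.93 and rose by 0.98.

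Other members of these 32 include surface and secreted proteins. THBD, the endothelial anticoagulant receptor thrombomodulin, was 86.4, 91.6 and 86.9 FPKM with shGFP and 21.9, 21.7 and 22.0 with shNRF2 in H2122, and 2.67, 2.91 and 3.02 with shGFP and 5.80, 5.47 and 6.06 with shNRF2 in H460, changes of -1.96 and 0.81. FJX1, a secreted protein, fell by 1.86 and rose by 1.23, and CD320, the receptor for transcobalamin-bound vitamin B12, fell by 1.82 and rose by 0.70. GJA1, the gap junction protein connexin 43, fell by 0.74 (mean 36.7 to 21.5 FPKM) and rose by 1.08 (21.0 to 45.5 FPKM). Apart from these surface and secreted proteins, SAMD5 fell by 1.27 and rose by 1.60. FHDC1 fell by 0.78 and rose by 1.43, and PP7080 fell by 0.69 and rose by 1.68. When libraries were rescaled to a common total, 65 of the 84 opposite genes stayed in the opposite classes, as did 23 of the 24 named by rule, PP7080 being the one that left. With 5 added to each value, 25 of the 84 stayed. Of the 24 named, 20 stayed, and GCHFR, THBD, FHDC1 and PP7080 left. The median level with shGFP was 9.80 FPKM in H2122 and 10.1 in H460. At the edge of the classes, SH2D4A (changes 0.72 and -0.59) was just inside and NANS (0.58 and -0.95) just outside the first direction, and CNTN1 (-0.59 and 1.79) just inside and SDF2L1 (-0.79 and 0.58) just outside the second.

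**Figure D2:**
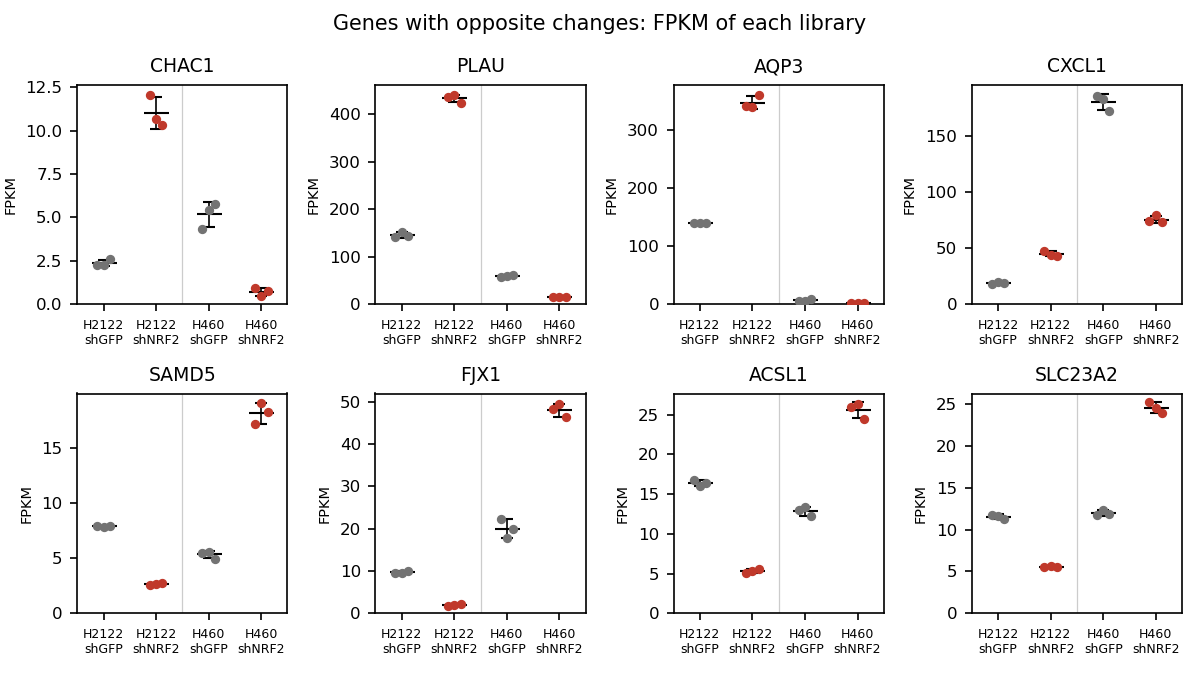
FPKM of each library (points; bars are the mean and SD of 3 libraries) for 8 genes that moved in opposite directions, in H2122 at 24 h and H460 at 72 h with shGFP (grey) or shNRF2 (red). In each panel the shGFP and shNRF2 libraries are apart in both lines and the step has opposite signs, as in PLAU, which went from a mean of 146 to 433 FPKM in H2122 and from 59.9 to 15.6 in H460.

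The established NRF2 targets fell in both lines, with a larger fall in H2122 for most. Of 20 genes of glutathione and thioredoxin metabolism, 20 fell in H2122 and 17 in H460, where SLC7A11 and SLC3A2, the 2 chains of the cystine transporter, rose by 0.19 and 0.10. The median change of the list was -1.59 in H2122 and -0.83 in H460, beside 0.07 and 0.01 over all genes tested. Of all genes tested, 35.8% fell in H2122 and 37.0% in H460. GCLM, the modifier subunit of glutathione synthesis, fell in both lines, with changes of -2.78 and -1.21, and FTL, the ferritin light chain, with changes of -2.76 and -1.27. NQO1, a quinone reductase and often used as a readout of NRF2, was 852, 871 and 837 FPKM with shGFP and 462, 463 and 465 with shNRF2 in H2122, and 1289.5, 1266 and 1245 with shGFP and 1547, 1590.4 and 1577 with shNRF2 in H460. It fell by 0.88 (SE 0.024) in H2122 and rose by 0.31 (SE 0.024) in H460, an opposing change below the 1.5-fold bound (adjusted p of the difference 1.1e-11, limma). Its H460 libraries with shNRF2 were all above those with shGFP. These lists were drawn from known NRF2 targets, so their direction is no independent evidence of it.

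Within detoxification and efflux the lines parted most at the carbonyl reductases and EPHX1. Of 28 genes listed 27 were tested, of which 26 fell in H2122 and 20 in H460 (medians -1.14 and -0.53). Of all genes tested, 35.8% fell in H2122 and 37.0% in H460. CBR1, which reduces carbonyls with NADPH, stood at 618, 632 and 614 FPKM with shGFP and 128, 122 and 128 with shNRF2 in H2122, against 88.5, 88.2 and 93.3 with shGFP and 88.6, 90.8 and 88.1 with shNRF2 in H460. It fell by 2.29 (SE 0.030) in H2122, and the 95% interval of its change in H460 ran from -0.08 to 0.05. EPHX1, the microsomal epoxide hydrolase, stood at 165, 167 and 166 with shGFP and 33.8, 33.1 and 36.6 with shNRF2 (FPKM) in H2122, and at 182, 180.4 and 188 with shGFP and 175, 166 and 167 with shNRF2 (FPKM) in H460. It fell by 2.23 in H2122, and its change in H460 was -0.12, within the bound of 0.32. CBR3 and AKR1B10, which reduce carbonyls too, fell in both lines, with changes of -2.97 in H2122 and -0.39 in H460 for CBR3 and of -3.73 and -1.28 for AKR1B10. ABCC3, an exporter of conjugates, rose by 0.46 in H2122 but fell by 0.68 in H460, whereas ABCC2 fell by 1.68 and rose by 0.25. Of 11 genes of NADPH supply, 10 fell in H2122 and 9 in H460.

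The antioxidant response element core, TGACNNNGC, was searched on both strands in the same windows. It was found in 13.3% of all windows, in 16 of 123 (13.0%) of the opposite genes, in 16 of 82 (19.5%) of the genes that fell in H2122 only, and in 23.8%, 29.4% and 33.3% of the windows of the 3 lists of NRF2 targets. Some other lists held it at similar or higher shares, with 11 of 25 windows (44.0%) for lysosome and autophagy genes, 3 of 6 for metallothioneins and zinc and 10 of 33 (30.3%) for p53 targets. EPHX1 is shown for the genes that fell in H2122 only: 250 bases before 1 of its several RefSeq starts, on the plus strand of GRCh38.p14 at chr1:225825104-225825353, with the TGACNNNGC match in capitals.
EPHX1: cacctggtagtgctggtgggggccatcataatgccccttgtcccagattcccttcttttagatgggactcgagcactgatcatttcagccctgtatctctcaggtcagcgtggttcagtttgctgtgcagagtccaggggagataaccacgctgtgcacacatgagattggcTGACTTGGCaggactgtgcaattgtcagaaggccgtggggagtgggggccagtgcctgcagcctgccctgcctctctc
The share among the opposite genes was close to that of all windows. Their 16 windows with a match came from 15 genes, among them PLAU, MAFF, GCHFR, SERPINB1, ACSL1, MPC1 and PP7080. No such match was found in the windows of CHAC1 or CXCL1, which says only that these letters are not there. The motifs searched shared no bases in any window.

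Of the genes that rose in H2122 only, ITGB8, the beta 8 integrin chain, changed most. It was 2.97, 3.10 and 2.72 FPKM with shGFP and 28.4, 29.9 and 27.1 with shNRF2 in H2122, a change of 2.91 (SE 0.060), and 6.03, 6.03 and 5.49 with shGFP and 5.48, 6.45 and 6.12 with shNRF2 in H460, where the 95% interval ran from -0.10 to 0.16. BACH1, the repressor that competes with NRF2, was 11.4, 12.1 and 11.1 with shGFP and 44.8, 44.5 and 43.0 with shNRF2 (FPKM) in H2122, and 6.53, 7.13 and 6.52 with shGFP and 7.45, 7.94 and 7.83 with shNRF2 (FPKM) in H460. It rose by 1.84 in H2122 and by 0.18 in H460, and it no longer met the bound in H460 after rescaling to a common total. GLUL, glutamine synthetase, rose by 2.10 in H2122 (mean 63.5 to 275 FPKM) and fell by 0.24 in H460, within the bound. SRD5A3, which makes the dolichol that carries N-glycans, rose by 2.13 in H2122 and had an uncalled change of -0.02 in H460, and AGR2, a disulfide isomerase of secretory cells, rose by 1.76 in H2122 but fell by 0.10 in H460. TFPI2, an inhibitor of plasmin and related proteases, rose by 1.83 in H2122 (uncalled change of -0.04 in H460), RBPMS, an RNA-binding protein, by 1.80 (uncalled, -0.08), and TNFAIP2, a gene induced by tumour necrosis factor, by 1.87 (0.16).

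Among the genes that fell in H2122 only, CA12 and SCARB1 are given by library. CA12, a membrane carbonic anhydrase, was 41.0, 40.7 and 42.2 FPKM with shGFP and 4.77, 4.94 and 4.50 with shNRF2 in H2122, and 79.2, 80.6 and 77.8 with shGFP and 71.1, 69.6 and 71.3 with shNRF2 in H460. It fell in both lines, with changes of -2.88 (SE 0.033) and -0.16 (SE 0.033), with the H460 libraries apart by far less than those of H2122. SCARB1, the receptor that takes up cholesterol from high-density lipoprotein, was 103, 101 and 107 with shGFP and 17.6, 16.2 and 19.2 with shNRF2 (FPKM) in H2122, and 208, 207 and 229 with shGFP and 222, 206 and 205 with shNRF2 (FPKM) in H460, where the 2 groups overlapped. ENO1, an enolase of glycolysis, fell by 1.77 in H2122 (mean 816 to 239 FPKM) and fell by 0.18 in H460 (1332 to 1177 FPKM). The related enolase ENO2 was one of the opposite genes, with changes of 0.60 and -1.07. CTSL1, the protease cathepsin L, fell by 2.11 in H2122, and its change in H460 was -0.12. SRGN, a proteoglycan of secretory granules, had changes of -1.77 and -0.14, and MARS2, the mitochondrial methionyl-tRNA synthetase, fell by 1.72 in H2122 and had an uncalled change of -0.02 in H460. With shGFP the 77 genes had a median of 29.0 FPKM in H2122 and 20.9 in H460, beside 8.72 and 8.45 over all genes tested. The class asks for a fall of at least 2 fold in H2122 and at least 1 FPKM on average in H460. Genes near 0 are thus left out by definition, and the higher medians are no finding about these genes.

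Among the genes that rose in H460 only, MAN2A2 and BAMBI are given by library. MAN2A2, a Golgi mannosidase that trims N-glycans, was 8.52, 9.52 and 10.2 FPKM with shGFP and 34.3, 31.5 and 31.5 with shNRF2 in H460, and 14.0, 13.5 and 13.8 with shGFP and 13.0, 12.0 and 11.8 with shNRF2 in H2122. It rose by 1.69 (SE 0.058) in H460 and fell by 0.16 in H2122. BAMBI, a decoy receptor that dampens TGF-beta and BMP signals, was 2.87, 2.58 and 2.36 with shGFP and 10.8, 10.2 and 10.4 with shNRF2 (FPKM) in H460, and 10.3, 11.6 and 10.4 with shGFP and 11.1, 10.7 and 11.4 with shNRF2 (FPKM) in H2122. Its rise of 1.67 brought H460 to the level that H2122 held in both groups. PLOD1, which hydroxylates collagen lysines, rose by 1.62 in H460 and had an uncalled change of -0.04 in H2122, and TLE1, a corepressor, rose by 1.62 in H460 with an uncalled change of -0.04 in H2122. PPAP2B, a lipid phosphate phosphatase, rose by 1.65 in H460 and 0.22 in H2122, the imprinted gene MEST by 1.55 and 0.19, and FBXO25, a substrate adaptor of a ubiquitin ligase, by 1.64 in H460 (uncalled change of -0.03 in H2122). NR1D2, a repressor of the circadian clock, rose by 1.40 in H460 and fell by 0.18 in H2122.

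The 27 genes that fell in H460 only were led by TNFRSF12A and IL8. TNFRSF12A, the receptor for the cytokine TWEAK, was 85.8, 83.7 and 90.2 FPKM with shGFP and 19.4, 20.0 and 20.1 with shNRF2 in H460, and 78.6, 85.7 and 85.1 with shGFP and 87.0, 84.4 and 92.7 with shNRF2 in H2122. It fell by 2.07 (SE 0.043) in H460, from a level that the lines shared with shGFP, and had an uncalled change of 0.08 in H2122 (adjusted p = 0.096, limma). IL8, a neutrophil chemokine like CXCL1, was 290.0, 274 and 254 with shGFP and 73.6, 71.9 and 75.4 with shNRF2 (FPKM) in H460, and 52.0, 53.4 and 52.6 with shGFP and 60.0, 60.7 and 58.6 with shNRF2 (FPKM) in H2122. It fell by 1.87 in H460 and rose by 0.18 in H2122, a change that left the bound after rescaling. TESC, a calcium-binding protein, fell by 1.87 in H460 and had an uncalled change of 0.09 in H2122, and HMGB3, a chromatin protein, fell in both lines, with changes of -1.80 in H460 and -0.16 in H2122. SEMA3E, a secreted guidance cue, fell by 1.70 in H460 and fell by 0.18 in H2122, and F11R, a tight junction adhesion molecule, had changes of -1.52 and -0.15. SOX7, a transcription factor, fell by 1.47 in H460 (uncalled change of -0.09 in H2122) and SLC35G2 fell by 1.45 (change -0.12 in H2122). Of the 32 genes named from these 4 classes, 26 stayed in their class after rescaling, and TNFAIP2, BACH1, PPAP2B, MEST, IL8 and TESC left it. Of all 252 genes of the 4 classes, 157 (62.3%) stayed. SEMA3E, GLUL, PPAP2B and NR1D2 left their class with 0.1 added to each value, under limma-voom and without single libraries. TESC left under limma-voom and without single libraries, and MAN2A2 without 1 library. With 5 added, FBXO25, TLE1, NR1D2, SEMA3E, SOX7 and SLC35G2 left. SEMA3E also left with median-ratio scaling or no filter on low values, and PPAP2B with all 18 knockdown libraries in 1 fit.

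**Figure D3:**
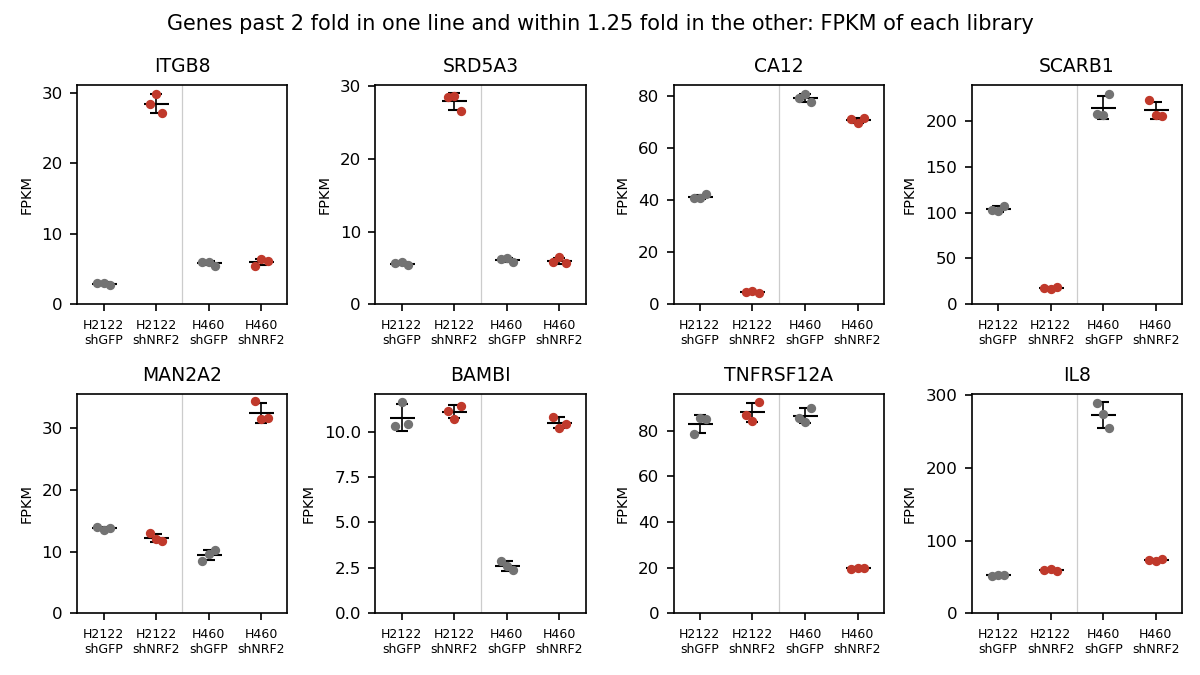
FPKM of each library (points; bars are the mean and SD of 3 libraries) for 8 genes that changed by at least 2 fold in 1 line and stayed within 0.32 (log2 scale) in the other, with shGFP in grey and shNRF2 in red. ITGB8, SRD5A3, CA12 and SCARB1 step in H2122 and MAN2A2, BAMBI, TNFRSF12A and IL8 in H460, each with 3 shNRF2 libraries outside the range of the 3 shGFP libraries of that line.

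Other large changes were in genes that the other line hardly expressed. In H2122, 229 such genes (1.79%) rose and 19 (0.148%) fell, against 141 (1.1%) that rose and 28 (0.219%) that fell in H460. CST1, CST2 and CST4, secreted cystatins that block cysteine proteases, rose in H2122 from means of 7.45, 1.48 and 6.74 FPKM to 144, 43.7 and 133 FPKM, changes of 4.10, 4.18 and 4.11. These 3 genes are near-identical copies whose reads may be split among them. TMPRSS2, a surface serine protease, was 0.926, 0.845 and 0.838 with shGFP and 30.5, 29.2 and 28.5 with shNRF2 (FPKM) in H2122 and was listed at 0 in each H460 library, and CEACAM7, an epithelial adhesion molecule, rose by 4.07. In H460, VGF, a secreted neuroendocrine protein, fell from 43.9, 40.8 and 42.3 to 2.88, 3.20 and 3.31 FPKM (change -3.39), while its mean in H2122 was 0.273 FPKM with shGFP. SDC2, a heparan sulfate proteoglycan, rose by 3.35 in H460, and FMOD, OLFML2A and SLC9A3 rose by 3.04, 2.99 and 2.83. The OLFML2A difference was not called when recovered read counts were tested with limma-voom.

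Most genes of protein folding in the endoplasmic reticulum rose in H460, whereas in H2122 they split in shares near those of all genes tested. Those shares were 45.7% higher and 35.8% lower in H2122, and 39.7% higher and 37.0% lower in H460. Of 24 chaperones and folding enzymes 23 were tested: 20 rose and 2 fell in H460, whereas 9 rose and 9 fell in H2122, a split that became 13 and 8 after rescaling to a common total. The median change was 0.72 in H460, -0.04 in H2122 and -0.65 for the difference, beside 0.01, 0.07 and 0.02 over all genes tested. HSPA5, the main chaperone of that compartment, was 350.3, 343 and 338 FPKM with shGFP and 725, 742 and 724 with shNRF2 in H460, and 163, 163 and 158 with shGFP and 136, 136 and 132 with shNRF2 in H2122. It rose by 1.08 (SE 0.025) and fell by 0.26 (SE 0.025), adjusted p of the difference 6.4e-12 (limma). HSP90B1, the lumenal HSP90, rose by 0.86 in H460 and fell by 0.38 in H2122, the lectin chaperone CANX rose by 0.74 and fell by 0.35, and SDF2L1 rose by 0.58 and fell by 0.79. CALR, the soluble lectin chaperone, rose in both, by 1.21 and 0.29. The endoplasmic reticulum stress element, CCAAT and CCACG with 9 bases between them, searched on both strands, was found in 0.0769% of all windows and in 10 of 28 (35.7%) of this list, from CALR, CANX, CRELD2, ERO1LB, HSP90B1, HSPA5, PDIA6 and XBP1. HSPA5 and CALR are shown because they share this element and rose together in H460 while parting in H2122. Each is 250 bases before a RefSeq start of GRCh38.p14, HSPA5 on the minus strand at chr9:125241344-125241593 and CALR on the plus strand at chr19:12938359-12938608, with the element in capitals, which in CALR reads on the opposite strand.
HSPA5: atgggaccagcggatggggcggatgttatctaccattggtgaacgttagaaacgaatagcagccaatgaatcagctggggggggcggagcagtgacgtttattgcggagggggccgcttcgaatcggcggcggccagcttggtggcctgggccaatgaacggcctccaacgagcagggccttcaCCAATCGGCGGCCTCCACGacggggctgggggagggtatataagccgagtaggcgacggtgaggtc
CALR: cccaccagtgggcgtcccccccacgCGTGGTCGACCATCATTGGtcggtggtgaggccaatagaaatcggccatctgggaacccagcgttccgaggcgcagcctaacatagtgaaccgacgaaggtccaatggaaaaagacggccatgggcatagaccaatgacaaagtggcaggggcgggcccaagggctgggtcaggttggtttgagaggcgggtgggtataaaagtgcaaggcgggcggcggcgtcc
The element begins 66 bases before the start in HSPA5 and 225 bases before it in CALR.

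The difference was called lower for H2122 in 18 of 24 N-glycosylation genes, and in 13 of 33 coat and translocon genes, a share near the 34.3% of all genes tested. The shares over all genes tested were 39.7% higher and 37.0% lower in H460, and 45.7% higher and 35.8% lower in H2122. Of 24 N-glycosylation genes, 15 rose and 8 fell in H460, against 6 and 14 in H2122 (medians 0.21 and -0.18). After rescaling the H2122 counts became 9 and 11, with a median of -0.04. DDOST and RPN2, subunits of the oligosaccharyltransferase, rose by 1.36 and 0.67 in H460, while in H2122 DDOST rose by 0.45 and RPN2 fell by 0.20. The core fucosyltransferase FUT8 was an exception, rising by 1.38 in H2122 and 0.24 in H460, and the mannosyltransferase ALG3 fell by 1.14 in H2122 and had an uncalled change of 0.02 in H460. Of 33 coat and translocon genes, 20 rose and 11 fell in H460, and the 14 that rose and 15 that fell in H2122 became 18 and 8 after rescaling. TMED2, a cargo receptor of these vesicles, rose by 1.79 in H460 and 0.51 in H2122. Lysosome and autophagy genes rose in both lines, 22 of 30 in H2122 and 23 in H460 (medians 0.32 and 0.67), led in H460 by the autophagy genes WIPI1 (1.87, against 0.88 in H2122) and GABARAPL1 (1.66 against 0.38). The lysosomal galactosidase GLA fell in both, with changes of -2.48 in H2122 and -1.37 in H460.

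Cholesterol synthesis fell more widely in H460. Of 25 genes 24 were tested, and 19 fell and 2 rose there, against 13 and 7 in H2122 (medians -0.64 and -0.16). Of all genes tested, 37.0% fell and 39.7% rose in H460, and 35.8% fell and 45.7% rose in H2122. After rescaling the H2122 counts became 11 lower and 10 higher, with a median of -0.03. The difference was called higher for H2122 in 18, beside 37.4% of all genes tested. INSIG1, which retains the SREBP transcription factors in the endoplasmic reticulum, fell by 1.45 in H460 and fell by 0.14 in H2122, and MSMO1, a sterol demethylase, had changes of -1.33 and -0.26. FDFT1, which makes squalene, and STARD4, a sterol carrier, fell in H460 (changes -0.92 and -0.46) and rose by 0.27 and 0.63 in H2122. Among 22 ATF4 and serine synthesis genes tested (24 listed), 13 fell in H2122 and 18 in H460 (medians -0.45 and -0.88). Most serine and amino acid genes fell in both, such as PSAT1 (-1.66 and -1.36), whereas ATF4 itself fell by 1.02 in H460 and had an uncalled change of 0.08 in H2122, and the stress genes ATF3 and DDIT4 rose by 0.32 and 0.45 in H2122 while in H460 ATF3 fell by 1.00 and DDIT4 fell by 1.26. VLDLR, a lipoprotein receptor, rose by 1.32 in H460 and 0.18 in H2122.

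Most interferon, NF-kB and complement genes tested rose in H2122, while in H460 fewer members of each list rose. Over all genes tested 45.7% rose and 35.8% fell in H2122, and 39.7% rose and 37.0% fell in H460. Of 25 interferon-stimulated genes tested (28 listed), 21 rose and 1 fell in H2122, 13 rose and 4 fell in H460, and the difference was called higher for H2122 in 20 (medians 1.03 and 0.19, difference 0.73, beside 0.02 over all genes tested). IRF1, a transcription factor induced by interferon, rose by 1.70 in H2122 and had an uncalled change of 0.08 in H460, IFI27 rose by 2.00 with an uncalled change of 0.21 in H460, and IFI44 and ISG20 rose by 1.55 and 1.32 in H2122 and fell in H460 (changes -0.60 and -0.21). Of 17 NF-kB subunits and feedback genes tested (18 listed), 14 rose and 2 fell in H2122, and 6 rose and 6 fell in H460, near the shares of all genes tested. BIRC3, an inhibitor of apoptosis, rose by 2.20 in H2122 but fell by 0.32 in H460, ICAM1, a leukocyte adhesion molecule, rose by 0.78 and fell by 0.32, and NFKBIZ, a nuclear inhibitor, rose by 2.44 and 0.76. SOD2 fell in both, with changes of -0.54 and -1.08. Of 14 complement and acute phase genes tested (18 listed), 12 rose and 2 fell in H2122, and 6 rose and 1 fell in H460, where the share that rose was near that of all genes tested. Of 17 antigen presentation genes tested (21 listed), 14 rose and 2 fell in H2122, and 9 rose and 5 fell in H460. LCN2, an iron-binding lipocalin, was 148, 150.1 and 141 with shGFP and 859, 808 and 791 with shNRF2 (FPKM) in H2122 and was listed at 0 in each H460 library. A gene could pass the filter through 1 line alone, as LCN2 did. For such members a fall in H460 could not have been seen, and the counts of these lists in H460 carry that limit. C3, the central complement protein, rose by 0.51 in H2122 but fell by 0.91 in H460.

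The chemokines were a case of single genes rather than of the whole list, since 7 of 18 tested (26 listed) rose and 7 fell in H2122 (8 and 4 after rescaling) and 6 rose and 9 fell in H460. All genes tested had 45.7% higher and 35.8% lower in H2122, and 39.7% higher and 37.0% lower in H460. In H460 the genes that fell included the neutrophil chemokines CXCL2 (change -1.93), CXCL5 (-1.29) and CXCL3 (-1.13) beside CXCL1 and IL8, while in H2122 CXCL2 fell by 0.27 and CXCL3 rose by 0.43. IL1B rose by 1.55 in H2122 but fell by 0.24 in H460. The kappa B site, GGGA and TTTCC with 1 base between them, searched on both strands, was found in 0.558% of all windows, in 6 of 16 (37.5%) of the chemokine list and in 8 of 28 (28.6%) of the NF-kB list, but in 1 of the 123 windows of the opposite genes, that of CXCL1. CXCL1 and NFKBIA, the inhibitor of NF-kB, are shown because both hold the site and both rose in H2122, NFKBIA by 0.79 with an uncalled change of -0.08 in H460. Both are 250 bases before a RefSeq start of GRCh38.p14, CXCL1 on the plus strand at chr4:73869143-73869392 and NFKBIA on the minus strand at chr14:35404750-35404999, with the site in capitals, which in NFKBIA reads on the opposite strand.
CXCL1: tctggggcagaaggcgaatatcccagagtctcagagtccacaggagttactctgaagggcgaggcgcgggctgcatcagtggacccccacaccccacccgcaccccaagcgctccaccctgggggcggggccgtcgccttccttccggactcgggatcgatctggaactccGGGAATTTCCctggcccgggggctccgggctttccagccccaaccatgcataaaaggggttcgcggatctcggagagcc
NFKBIA: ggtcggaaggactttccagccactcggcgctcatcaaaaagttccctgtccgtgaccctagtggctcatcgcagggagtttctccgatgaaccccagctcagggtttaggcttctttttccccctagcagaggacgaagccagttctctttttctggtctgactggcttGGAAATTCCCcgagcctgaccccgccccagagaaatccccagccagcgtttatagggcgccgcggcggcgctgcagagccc
The site begins 79 bases before the start in CXCL1 and 81 bases before it in NFKBIA.

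Most epithelial genes tested rose in H2122. Exceptions there were EPCAM, with means of 333 FPKM with shGFP and 290 with shNRF2, and KRT18, with 782 and 785 FPKM. Of 31 junction and surface genes tested (33 listed), 27 rose and 2 fell in H2122, against 7 and 5 in H460 (medians 0.63 and 0.01). Many of them are near 0 in H460 with either hairpin, including CDH1, and a fall there could not have been seen. CEACAM6, CEACAM5 and CEACAM1, adhesion molecules of epithelia, rose by 3.06, 2.34 and 2.24 in H2122, where CEACAM6 went from 213, 214 and 209.6 to 1786, 1788 and 1774 FPKM. Among genes that H460 does express, the claudins CLDN4 and CLDN7 rose by 0.53 and 0.48 in H2122 and fell in H460 (changes -0.99 and -0.36), while the mucin MUC1 rose in both, by 2.51 and 1.02. Of 16 keratins tested (19 listed), 11 rose and 4 fell in H2122, and 1 rose and 9 fell in H460. KRT80 was one of the opposite genes (0.60 and -1.64), and KRT19 was the keratin that rose in both (1.31 and 0.53). Of 25 p53 targets, 19 rose and 3 fell in H2122, and 9 rose and 10 fell in H460, or 11 and 9 after rescaling, with the H460 counts near the shares of all genes tested (39.7% higher and 37.0% lower). In H2122 the shares of all genes tested were 45.7% higher and 35.8% lower. GDF15, a stress cytokine, rose by 0.38 in H2122 but fell by 1.44 in H460, and DDB2 and BTG2 moved likewise (0.96 and -0.58, 0.24 and -1.03), whereas CDKN1A, the p21 inhibitor of the cell cycle, rose in both (1.16 and 0.85).

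Signalling and matrix lists differed by member. Their counts stand beside shares over all genes tested of 45.7% higher and 35.8% lower in H2122, and 39.7% and 37.0% in H460. Of 13 immediate early factors tested (16 listed), 10 rose and 3 fell in H2122, and 3 rose and 8 fell in H460 (medians 0.59 and -0.31). MYC and FOSL1, transcription factors of growth, fell in both (-1.81 and -0.94, -1.97 and -1.94), whereas IER3 rose by 0.73 in H2122 but fell by 0.46 in H460. Of 17 MAP kinase feedback genes, 11 rose in H2122 and 9 in H460, with DUSP5, a phosphatase of ERK, rising by 0.55 in H2122 and falling by 1.67 in H460 while DUSP6 rose in both (2.06 and 1.08). AHR, the aryl hydrocarbon receptor, rose by 1.33 in H2122 but fell by 0.30 in H460. AXL, a receptor kinase, fell by 1.83 in H460 and was 0.234 FPKM with shGFP in H2122. In the urokinase system, 8 of 11 genes tested (12 listed) rose in H2122, and 5 rose and 5 fell in H460. Beside PLAU, S100A10, a cell surface partner of plasminogen, rose by 0.56 in H2122 but fell by 0.43 in H460. FURIN, a protease that activates proproteins, rose by 3.49 in H460 (mean 23.5 to 274 FPKM) and 1.04 in H2122, and COL5A1, a fibrillar collagen, rose by 2.32 in H460 and was listed at 0 in each H2122 library with shGFP. ITGB4, a laminin receptor chain, rose by 1.65 in H2122 and had an uncalled change of 0.01 in H460.

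Growth genes fell in both lines. Of all genes tested, 35.8% fell in H2122 and 37.0% in H460, and 34.3% were called lower in the difference. All 25 mitosis genes and all 28 DNA replication genes tested fell in each line, with medians of -1.65 and -1.56 in H2122 and -1.35 and -1.67 in H460. The difference was called lower for H2122 in 19 of the mitosis genes, led by the kinase AURKA (-1.57 and -0.40), and in 5 of the replication genes, where 7 were called higher, so fewer replication genes than of all genes tested (71.6%) differed between the lines. Cytosolic ribosomal protein genes separated the lines more evenly: all 32 fell in H2122 (median -0.69), 23 fell and 1 rose in H460 (median -0.18), and all 32 were called lower in the difference. RPS16, the exception, fell by 0.66 in H2122 and rose by 0.23 in H460. Ribosome biogenesis factors fell in 22 of 22 in H2122 (median -1.53) and 21 in H460 (median -0.67), with changes of -1.45 and -0.16 for RRS1. Of 29 hypoxia and glycolysis genes tested (30 listed), 20 fell in H2122 and 22 in H460. CA9, a hypoxia-induced carbonic anhydrase, fell by 2.12 in H460 and fell by 0.29 in H2122, the reverse order of its relative CA12.

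**Figure D4:**
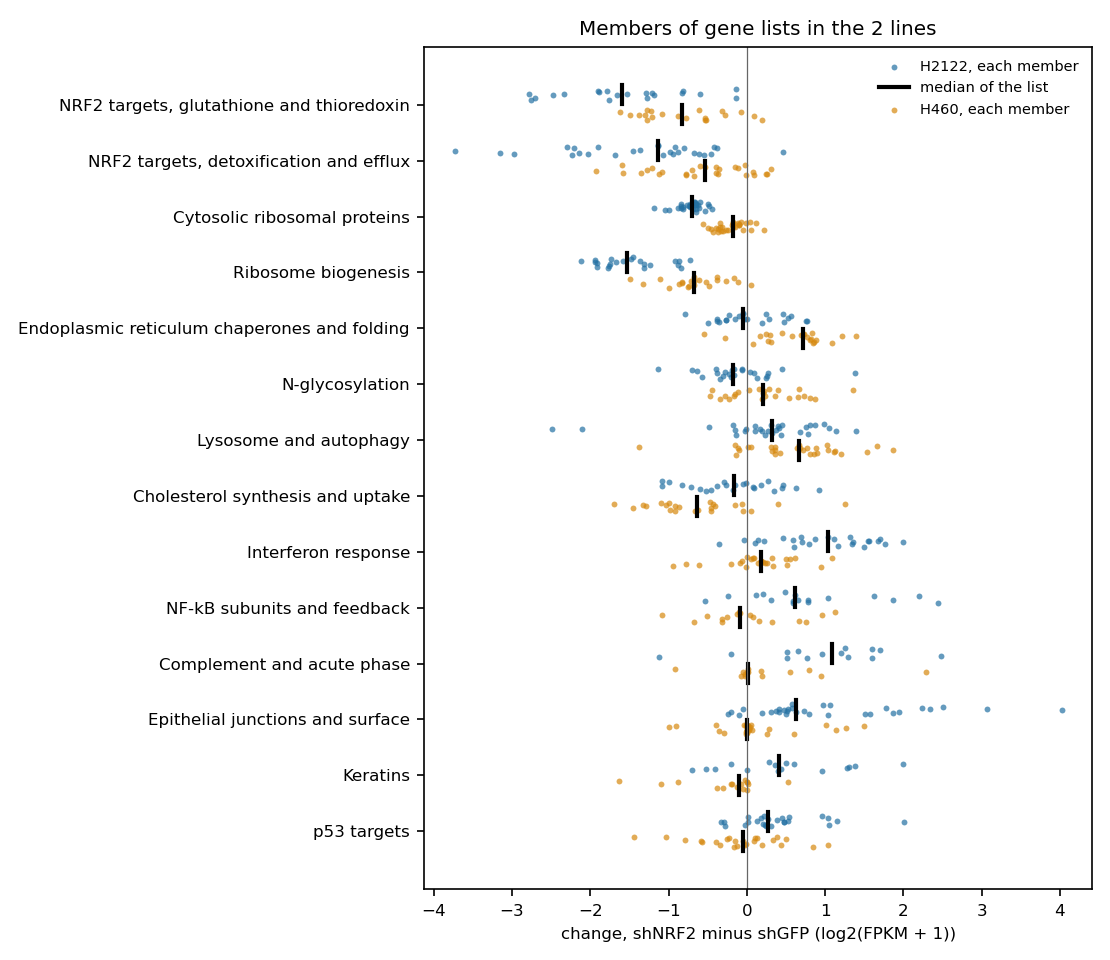
Change of each list member in H2122 and in H460, as shNRF2 minus shGFP in log2(FPKM + 1), for 14 gene lists. Each point is 1 gene (blue H2122, orange H460) and each black bar the median of the list. The NRF2 target, ribosomal protein and ribosome biogenesis medians lie left of 0 in both lines, while the endoplasmic reticulum chaperones lie at 0.72 in H460 and -0.04 in H2122 and the interferon response at 0.19 and 1.03.

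Markers of other cell types were checked beside these groups. PTPRC and CD3E, which define immune cells, were below 1 FPKM in each of the 12 libraries, and so were the endothelial PECAM1, VWF and CDH5. Of 14 immune list genes 4 reached the level for testing, of which 3 rose in H2122 and 1 rose and 1 fell in H460, with LYZ, the lysozyme of myeloid and glandular cells, rising by 2.18 in H2122. There the lysosomal CD68 rose by 1.07 and the B cell receptor chain CD79A rose by 2.08, and in H460 CD68 fell by 0.21. CD14, a myeloid receptor, went from 5.38 to 7.95 FPKM in H460. Of 6 fibroblast and endothelial genes tested (14 listed), 4 rose and 1 fell in H460, with the matrix proteoglycans DCN and LUM going from means of 0.799 and 8.46 FPKM to 10.3 and 22.7 FPKM. PDGFRB, a fibroblast and pericyte receptor, rose by 0.64 in H460, from a mean of 1.56 FPKM. COL1A1, a fibrillar collagen of fibroblasts, was 0.489 and 0.409 FPKM in H460, and in H2122 it rose from 9.80 to 14.0 FPKM. The part of these markers in the results was not tested. COL3A1 and KDR had differences of 0.67 and -1.23 whose signs turned under limma-voom on recovered reads.

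The H460 values after the other hairpins, which share the H460 shGFP libraries, stand beside those of NRF2. PLAU was 11.9, 12.3 and 12.1 FPKM with shNR0B1 and 16.6, 16.5 and 17.6 with shSNW1, against 16.0, 15.7 and 15.2 with shNRF2. CXCL1 was 74.6, 78.2 and 69.4 FPKM with shNR0B1 and 97.8, 107 and 101 with shSNW1. IL8 was 101, 95.9 and 86.7 FPKM with shNR0B1 and 400.1, 400.4 and 395 with shSNW1, so that IL8 was low with shNRF2 and above all of its shGFP libraries with shSNW1. CPS1 was 432, 434 and 423 FPKM with shNR0B1 and 178, 169 and 173 with shSNW1, against 739, 762 and 712 with shNRF2. HSPA5 was 475, 492 and 472 FPKM with shNR0B1 and 312, 313 and 319 with shSNW1, against 725, 742 and 724 with shNRF2. NR0B1 itself, a nuclear receptor, fell with shNRF2 in both lines, with changes of -3.32 in H2122 and -2.27 in H460, and its difference between lines was not called with 5 added to each value in place of 1.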

How the data were processed

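Polyadenylated RNA from 12 libraries of 2 cell lines, 3 in each of 4 groups, was compared. Per the labels' protocols the libraries were made with the TruSeq RNA kit, and the submitters' processing notes name STAR, featureCounts, DESeq2 and the genome build hg19 without giving their roles or settings, so strand use in counting is not given in the sources used here. The authors deposited 1 table of FPKM values. In every gene kept these values were whole reads, to within 0.02 reads, times a step per gene, which gave the depths reported (16709893 to 24613434 reads per library). The deposited depth scaling matched median-ratio factors over the 18 knockdown libraries. Another 9 columns, of H460 cells given DMSO or a compound, were not used.

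Of 23710 genes, the 12798 that reached 1 FPKM in 3 or more of the libraries compared were kept. limma 3.58.1 in R 4.3.3 was fitted to log2(FPKM + 1) with 1 mean per group and a trend of variance on level, and p-values were adjusted over all genes kept. The fit was also run on simulated data in which few genes changed in H2122 and none in H460. Most genes were called in these data, so that run does not give their error rates. The members, classes and 46 gene lists were chosen with earlier results of these data known. Named are NFE2L2, NR0B1, KEAP1 and NQO1, the 12 genes per opposite direction with the largest value of the smaller change and the 8 with the largest change per class of 1 line, both with libraries apart and at least 5 FPKM in the higher group of each line, the 5 per line with the largest change among genes low in the other line, with at least 5 FPKM in the higher group, and up to 4 members per list with the largest difference between lines. Further list members are named to show a list's range. These, PMAIP1, the genes at class edges and those named for a promoter match were taken after values were seen. Same-numbered libraries were not treated as pairs in the main fit. Of 18 such pairs 1 correlated above 0.1, although 8 of 12 libraries correlated best with their own number. The alternatives were pseudocounts of 0.1 and 5, other filters and scalings, limma-voom on recovered reads, no trend, a replicate block, all 18 knockdown libraries in 1 fit, other fold bounds and each library left out. Promoter windows came from RefSeq on GRCh38.p14 and were matched by symbol. The ChIP and compound samples were not analysed here.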

Additional observations from a re-analysis of the deposited data

Results flagged for a closer look

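The 2 lines differed in their response by a test of the difference itself for 4782 genes toward a higher and 4386 toward a lower value in H2122, and among these 52 genes rose in H2122 and fell in H460 and 32 did the reverse (limma, Benjamini-Hochberg adjustment over 12798 genes). Groups of 3 libraries are too small to test for a library far from the others.

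For the named genes that rose in H2122 and fell in H460, the difference between the lines on the log2(FPKM + 1) scale was 3.67 for CHAC1, 3.44 for PLAU, 2.98 for AQP3, 2.71 for ANXA3, 2.50 for GCHFR, 2.45 for CXCL1 and 2.36 for MDK. It was 2.21 for PLS1, 2.11 for CAPG, 2.00 for SERPINB1, 1.99 for SDC4 and 1.96 for ASS1. For the named genes that fell in H2122 and rose in H460, the difference was -3.09 for FJX1, -2.87 for SAMD5, -2.77 for THBD, -2.52 for CD320, -2.39 for ACSL1 and -2.37 for PP7080. It was -2.22 for FHDC1, -2.09 for CPS1, -2.07 for IMPDH1, -1.91 for SLC23A2, -1.82 for GJA1 and -1.61 for MPC1. Each was chosen for its opposing change, so the sizes are a description.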

How the results depend on the processing

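Of the 230 named genes, 214 kept a called difference of the same sign under each of the 22 alternatives to the fit that tested them, a filter on both lines leaving some genes out. The sign turned under limma-voom on recovered reads for ZEB2 (0.54), TP63 (-0.72), KDR (0.15) and COL3A1 (-0.47), all near 0 FPKM in 1 line, and the cause was not tested. The counts called in the difference stayed within 1.5 times under every alternative, but the classes with fold bounds did not. Opposite genes numbered 127 and 88 with 0.1 added to each value, 15 and 10 with 5 added, 146 and 101 by limma-voom, and 7 and 5 at 2 fold in each line. Genes falling in 1 line only numbered 47 in H2122 and 13 in H460 with 5 added, and 42 in H460 by limma-voom. With the other line allowed 1.5 fold, the 4 classes of 1 line held 213, 204, 129 and 68 genes. A larger added value shrinks the changes of genes of low expression by construction.

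Leaving out each library in turn gave 4607 to 4819 genes higher and 4187 to 4436 lower in the difference, 5672 to 5927 and 4446 to 4637 in H2122, and 4898 to 5065 and 4592 to 4727 in H460. The opposite classes held 51 to 58 and 32 to 35 genes, and those of 1 line 78 to 90, 65 to 78, 54 to 66 and 23 to 29. In these runs the group with 2 libraries shares its spread with the other groups. With the replicate number as a block, 84 genes were opposite and 254 changed in 1 line only. Correlations of same-numbered libraries were weak, from -0.095 to 0.118, but 8 of 12 libraries correlated best with their own number. Whether the numbers mark pairs is therefore not settled.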
